A study of Homo sapiens with 9 samples.

Results

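The integrated stress response and the unfolded protein response were followed through 44 genes in human pluripotent cells that were leaving the naive state while Polycomb repressive complex 2 (PRC2) was blocked. The genes were chosen by symbol as known members of these responses, with earlier results of these data known. All 44 were found among the 56312 entries of the count table, and all 44 were among the 24187 entries that passed the filter on low counts. They fall into 13 regulators and effectors of the integrated stress response (ISR), 13 genes of the ATF4 metabolic arm (serine and one-carbon enzymes, amino acid supply, tRNA synthetases) and 18 genes of the endoplasmic reticulum (ER) arm (chaperones, disulfide isomerases, ER-associated degradation and the transcription factor XBP1).

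In the integrated stress response, kinases that sense amino acid shortage, unfolded ER protein, viral RNA or haem deficiency phosphorylate the translation factor eIF2. Bulk translation then falls while ATF4 is translated, and ATF4 switches on genes for amino acid synthesis, uptake and tRNA charging. The unfolded protein response shares the ATF4 branch through the kinase PERK and adds the ATF6 and IRE1-XBP1 branches, which raise ER chaperones and the machinery that removes misfolded proteins.

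RNA was sequenced in bulk from wild-type cells of HNES1, a line of human naive pluripotent cells taken from an embryo, on day 5 after the naive medium PXGL was exchanged for N2B27 with the tankyrase inhibitor XAV939. The 3 groups, of 3 libraries each, were vehicle (DMSO), UNC1999 at 1 µM, a catalytic inhibitor of EZH1 and EZH2 (group UNC), and UNC6852 at 2.5 µM, a PROTAC that degrades the PRC2 subunit EED (group PROTAC). Compounds or vehicle were added 24 h before the naive medium was withdrawn and renewed daily, so the cells had been exposed throughout the transition. All groups came from 1 cell line that had been kept on mouse feeder cells and was seeded on Geltrex for the experiment. Library totals ran from 31651742 to 101081643 counts, and mitochondrial transcripts took 3.21% to 5.12% of them. In bulk RNA, a smaller share of cells that use a gene and less RNA of that gene per cell cannot be told apart. The study states 3 independent repeats, and the replicate numbers 1 to 3 in the labels are used here to pair libraries across groups.

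The known regulatory sequences of the arms were looked for in RefSeq promoter windows (build GRCh38.p14) that run from 250 bases before to 50 bases after the transcription start. Windows were at hand for 38 of the 44 genes (not for NUPR1, PSPH, SHMT2, ALDH1L2, SLC7A11 and PDIA3). The ATF4 site (CARE, TGATGNAA on either strand) was in 5 of the 38 windows, those of ATF3, CHAC1, ASNS, SLC3A2 and HERPUD1, against 3.67% of all 27305 windows. The ER stress element (ERSE: CCAAT, 9 bases of any kind, CCACG) was in 5 of the 17 windows of the ER arm, those of HSPA5, HSP90B1, CALR, XBP1 and CRELD2, and in 0 of the other 21, against 0.0806% of all windows. ERSE-II (ATTGG, 1 base of any kind, CCACG) was in the windows of HYOU1, HERPUD1 and SDF2L1, against 0.0549% of all windows. The XBP1 site UPRE (TGACGTGG) was in that of HYOU1 alone among the 38, where it overlaps an ERSE-II, against 0.795% of all windows. A match describes letters only, and a window without one says only that these letters are not in it. The windows below are those whose genes the results return to. ASNS (chr7:97872359-97872658, minus strand) and CHAC1 (chr15:40953221-40953520, plus strand) show the ATF4 site. HSPA5 (chr9:125241294-125241593, minus strand), HSP90B1 (chr12:103930160-103930459, plus strand) and XBP1 (chr22:28800520-28800819, minus strand) show ERSE. HYOU1 (chr11:119057156-119057455, minus strand) shows ERSE-II and UPRE, and HERPUD1 (chr16:56931892-56932191, plus strand) shows an ATF4 site and an ERSE-II. Each is written 5′ to 3′ in the direction of the gene, and capitals mark the matched motif letters, read on either strand, without the free bases inside ERSE.
ASNS: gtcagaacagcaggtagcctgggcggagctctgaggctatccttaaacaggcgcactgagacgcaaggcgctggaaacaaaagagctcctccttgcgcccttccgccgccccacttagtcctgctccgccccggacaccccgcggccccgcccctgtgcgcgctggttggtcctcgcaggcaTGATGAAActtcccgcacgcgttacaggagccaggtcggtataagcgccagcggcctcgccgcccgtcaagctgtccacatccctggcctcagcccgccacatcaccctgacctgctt
CHAC1: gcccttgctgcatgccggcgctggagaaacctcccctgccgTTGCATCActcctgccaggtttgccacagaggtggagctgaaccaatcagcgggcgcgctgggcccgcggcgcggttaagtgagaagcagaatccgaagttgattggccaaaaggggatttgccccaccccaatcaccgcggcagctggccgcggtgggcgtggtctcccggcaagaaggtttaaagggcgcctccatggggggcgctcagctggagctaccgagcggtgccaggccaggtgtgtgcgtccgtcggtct
HSPA5: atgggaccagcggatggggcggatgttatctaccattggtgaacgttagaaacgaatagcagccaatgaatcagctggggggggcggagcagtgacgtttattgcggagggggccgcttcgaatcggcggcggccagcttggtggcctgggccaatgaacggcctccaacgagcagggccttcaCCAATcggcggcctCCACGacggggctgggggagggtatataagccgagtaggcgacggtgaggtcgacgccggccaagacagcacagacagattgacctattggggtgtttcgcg
HSP90B1: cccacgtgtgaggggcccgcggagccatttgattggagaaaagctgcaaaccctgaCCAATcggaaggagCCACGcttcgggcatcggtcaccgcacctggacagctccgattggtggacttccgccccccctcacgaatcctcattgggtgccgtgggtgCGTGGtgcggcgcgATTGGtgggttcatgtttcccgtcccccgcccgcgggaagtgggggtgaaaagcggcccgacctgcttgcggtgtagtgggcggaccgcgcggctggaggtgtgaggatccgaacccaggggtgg
XBP1: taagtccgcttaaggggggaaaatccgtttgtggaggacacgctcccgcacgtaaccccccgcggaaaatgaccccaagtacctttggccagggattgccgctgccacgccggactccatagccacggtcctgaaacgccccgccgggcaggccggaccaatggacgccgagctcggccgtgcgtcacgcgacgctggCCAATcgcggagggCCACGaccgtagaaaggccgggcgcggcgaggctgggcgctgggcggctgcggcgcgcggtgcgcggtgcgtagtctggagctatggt
HYOU1: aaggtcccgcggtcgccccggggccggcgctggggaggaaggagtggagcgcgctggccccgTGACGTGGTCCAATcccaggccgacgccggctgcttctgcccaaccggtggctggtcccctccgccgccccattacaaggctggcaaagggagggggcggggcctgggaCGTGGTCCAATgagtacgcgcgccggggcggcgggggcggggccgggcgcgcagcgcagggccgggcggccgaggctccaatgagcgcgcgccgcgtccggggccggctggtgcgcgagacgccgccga
HERPUD1: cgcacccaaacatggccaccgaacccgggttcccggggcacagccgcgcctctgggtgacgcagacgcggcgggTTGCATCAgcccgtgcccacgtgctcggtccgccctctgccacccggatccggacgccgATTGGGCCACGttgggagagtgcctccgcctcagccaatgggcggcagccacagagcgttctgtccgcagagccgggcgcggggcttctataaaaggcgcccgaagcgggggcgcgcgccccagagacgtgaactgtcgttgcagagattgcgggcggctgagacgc

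In the ASNS window the site lay 68 to 61 bases before the start, and in the CHAC1 window 209 to 202 bases before it, on the opposite strand. The HSPA5 match read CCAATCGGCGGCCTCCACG and ended 48 bases before the start. HSP90B1 held 2 such matches, 194 and 89 bases before the start at their far ends.

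Most of the stress genes were slightly higher with UNC1999, in all 3 arms. With libraries paired by replicate number, 27 of the 44 were higher than in DMSO, 1 was lower (WARS1) and 16 were not called, a call being an adjusted p under 0.05 in edgeR's quasi-likelihood test over all genes. Over all 24187 genes, 7.04% were called higher and 6.46% lower in the same fit. Among the 10611 genes with a mean of at least 10 CPM (counts scaled by library size), a range that holds all 44, 13.2% were called higher. The median log2 fold change of the 44 was 0.22, against -0.01 for all genes and 0.03 for genes of at least 10 CPM. Of the 44, 41 were positive, against 48.1% of all genes and 58.6% of genes of at least 10 CPM. Fitted by group alone, without pairing, 1 of the 44 was called higher (ALDH1L2) and 0 lower, where 0.318% and 0.401% of all genes were called. Every other member of the 44 said below to rise or fall with UNC was called in the paired fit but not in this one. At an unadjusted p under 0.05 the fit by group alone gave 21 higher and 0 lower. Over all 24187 genes 3001 passed that level in either direction. DESeq2 by group called 6 higher and 0 lower (404 and 397 over all genes), and limma-voom 1 higher and 0 lower (70 and 87). In 17 of the 44, every UNC library lay above every DMSO library, as it did in 8.34% of all genes. That share was not taken among genes of at least 10 CPM. With scaling to library size alone, the paired calls over all genes turned from 1703 higher and 1562 lower to 1165 higher and 1917 lower, and those of the 44 from 27 and 1 to 23 and 1. In the fit by group alone the same scaling changed 77 higher and 97 lower to 41 and 81.

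**Figure D1:**
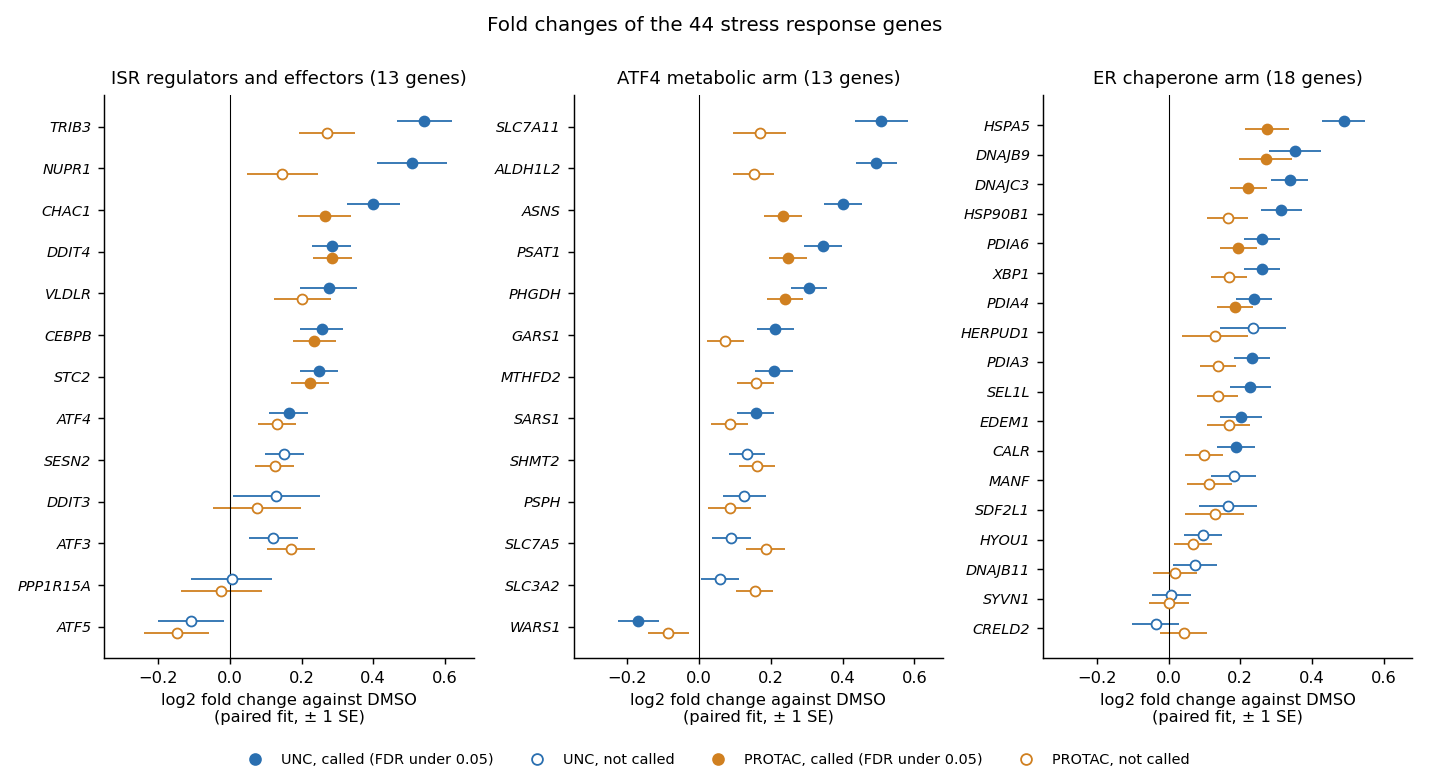
Log2 fold change against DMSO of each of the 44 genes in the paired fit (x axis, bars ± 1 SE) for UNC and PROTAC, in 3 panels by arm, ordered by the UNC value. Filled points were called: 27 higher and 1 lower for UNC, 12 higher for PROTAC.

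Of the 13 ISR regulators and effectors, 8 rose with UNC and 5 were not called (median 0.25). ATF4, the central transcription factor, was at 334, 352.5 and 360 CPM in DMSO libraries 1 to 3 and at 336, 426 and 416 CPM in UNC. UNC 1 lay within the DMSO range and the others above it. ATF4 rose by 0.16 ± 0.05 (log2, SE) in the paired fit, with an adjusted p of 0.0377 there and 0.495 by group alone. TRIB3, a pseudokinase that ATF4 and CHOP induce and that dampens ATF4, was at 43.4, 56.3 and 52.9 CPM in DMSO and at 52.1, 102 and 74.8 CPM in UNC. The groups overlapped through UNC 1, although UNC was higher within each pair. The rise of TRIB3 was 0.54 ± 0.08, the largest among the 44 (adjusted p = 9.74e-05 paired, 0.328 by group alone). CHAC1, an enzyme that degrades glutathione, was at 22.4, 23.0 and 19.6 CPM in DMSO and at 26.0, 33.4 and 26.6 CPM in UNC. Here the groups did not overlap, and CHAC1 rose by 0.40 ± 0.07 (adjusted p = 2.37e-04 paired, 0.233 by group alone).

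NUPR1, a small stress-induced chromatin protein, rose by 0.51 ± 0.10 from a mean of 10.1 CPM, with pair differences of 0.07, 0.74 and 0.63. DDIT4, an inhibitor of mTORC1, rose by 0.28 ± 0.05, the transcription factor CEBPB by 0.26 ± 0.06, the secreted glycoprotein STC2 by 0.25 ± 0.05 and the lipoprotein receptor VLDLR by 0.28 ± 0.08. DDIT3, which encodes the pro-apoptotic factor CHOP, was not called. It was at 25.8, 43.3 and 31.96 CPM in DMSO and at 21.3, 58.0 and 37.1 CPM in UNC, so that the lowest and the highest of these 6 libraries were both UNC. Its log2 difference was 0.13 ± 0.12 (adjusted p = 0.587 paired), negative in pair 1 and positive in pairs 2 and 3. The leucine sensor SESN2 was at 97.0, 91.4 and 84.1 CPM in DMSO and at 95.8, 106 and 100.5 CPM in UNC, a difference of 0.15 ± 0.05 that just missed the threshold (adjusted p = 0.0559). ATF3 (0.12), ATF5 (-0.11) and PPP1R15A (0.0048), the phosphatase subunit that reverses eIF2 phosphorylation, were not called either. All 5 of these uncalled genes were lower in UNC than in DMSO in pair 1. The sign of PPP1R15A depended on the scaling (-0.03 to 0.01).

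In the ATF4 metabolic arm 8 of 13 rose with UNC, WARS1 fell and 4 were not called (median 0.21), and the DMSO and UNC libraries were often fully apart. PSAT1, an aminotransferase of serine synthesis, was at 252, 292 and 259 CPM in DMSO and at 322, 362 and 336.5 CPM in UNC. No UNC library fell into the DMSO range, and PSAT1 rose by 0.35 ± 0.05 (adjusted p = 1.41e-05 paired, 0.0615 by group alone). PHGDH, the entry enzyme of that pathway, was at 269, 289 and 262 CPM in DMSO and at 315.5, 380 and 322 CPM in UNC, again without overlap. It rose by 0.31 ± 0.05 (adjusted p = 3.71e-05 paired). The mitochondrial folate dehydrogenase MTHFD2 was at 491.5, 582 and 519.5 CPM in DMSO and at 567, 701 and 576 CPM in UNC. It rose by 0.21 ± 0.05 (adjusted p = 0.00524 paired), with DMSO 2 above UNC 1 and UNC 3. ALDH1L2, a mitochondrial folate dehydrogenase at the end of the one-carbon route, was at 34.9, 34.6 and 37.9 CPM in DMSO and at 48.6, 46.5 and 56.5 CPM in UNC. It was the only one of the 44 called in both fits, with 0.50 ± 0.09 by group alone (adjusted p = 0.0300) and 0.49 ± 0.06 paired (adjusted p = 7.17e-08). PSPH (0.13) and SHMT2 (0.13) did not overlap between the groups but were not called (adjusted p = 0.170 and 0.0754).

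Asparagine synthetase, ASNS, whose promoter carries the ATF4 site printed above, was at 122.5, 144 and 134 CPM in DMSO and at 156, 204 and 170 CPM in UNC. The groups did not overlap, and ASNS rose by 0.40 ± 0.05 (adjusted p = 8.98e-07 paired, 0.0757 by group alone). SLC7A11, the cystine importer, was at 24.2, 19.5 and 28.3 CPM in DMSO and at 38.4, 27.3 and 36.8 CPM in UNC. Its mean over the groups was lowest in number 2, as among the 44 it was otherwise only for ALDH1L2 and PSPH. SLC7A11 rose by 0.51 ± 0.07 (adjusted p = 7.10e-06 paired), the groups overlapping through UNC 2. The large neutral amino acid transporter SLC7A5 (0.09) and its partner chain SLC3A2 (0.06) were not called. GARS1, the glycyl-tRNA synthetase, was at 267, 260.4 and 288 CPM in DMSO and at 294, 332 and 319 CPM in UNC. It rose by 0.21 ± 0.05 without overlap (adjusted p = 0.00397 paired). The seryl-tRNA synthetase SARS1 rose by 0.16 ± 0.05 (adjusted p = 0.0377). The tryptophanyl-tRNA synthetase WARS1, which interferon also induces, fell by 0.17 on the log2 scale (adjusted p = 0.0424), lower in UNC in all 3 pairs. That fall was not called under RLE scaling or by DESeq2 in the paired fits.

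In the ER arm 11 of 18 rose with UNC and 7 were not called (median 0.23). HSPA5, the main ER chaperone BiP, was at 529, 718 and 666 CPM in DMSO and at 665, 1201 and 874 CPM in UNC. UNC 1 lay within the DMSO range, and UNC 2 stood above all other libraries. HSPA5 rose by 0.49 ± 0.06, with UNC above DMSO within each pair (adjusted p = 6.10e-07 paired, 0.320 by group alone). HSP90B1, the ER form of HSP90, was at 1091, 1221 and 1190 CPM in DMSO and at 1351, 1678 and 1342 CPM in UNC. The groups did not overlap, and HSP90B1 rose by 0.31 ± 0.06 (adjusted p = 1.16e-04 paired, 0.167 by group alone). The disulfide isomerase PDIA4 was at 376, 433 and 403 CPM in DMSO and at 446, 528 and 456 CPM in UNC. It rose by 0.24 ± 0.05 without overlap (adjusted p = 9.92e-04 paired), and so did its relatives PDIA3 (0.23) and PDIA6 (0.26), that is, all 3 isomerases in the set. XBP1, the transcription factor that IRE1 activates by splicing, was at 141, 145 and 146.5 CPM in DMSO and at 161, 184 and 173.5 CPM in UNC. It rose by 0.26 ± 0.05 without overlap (adjusted p = 2.69e-04 paired, 0.101 by group alone), and gene counts do not tell its spliced from its unspliced form.

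The co-chaperones DNAJB9 (0.35 ± 0.07) and DNAJC3 (0.34 ± 0.05), the lectin chaperone CALR (0.19 ± 0.05) and the degradation genes SEL1L (0.23 ± 0.06) and EDEM1 (0.20 ± 0.06) rose as well. HYOU1, a large ER chaperone whose window carries the ERSE-II and UPRE letters, was not called. It was at 613, 650 and 688 CPM in DMSO and at 635, 726 and 727 CPM in UNC, a difference of 0.10 ± 0.05 (adjusted p = 0.255). SDF2L1, a BiP cofactor, was at 12.3, 15.7 and 13.9 CPM in DMSO and at 11.8, 20.9 and 15.3 CPM in UNC (0.17 ± 0.08, adjusted p = 0.192). HERPUD1, an ER membrane protein of the degradation machinery, was at 55.8, 74.7 and 52.2 CPM in DMSO and at 51.3, 102 and 68.5 CPM in UNC (0.24 ± 0.09, adjusted p = 0.130). In both of these genes UNC 1 was the lowest and UNC 2 the highest of the 6 libraries. MANF, a secreted ER stress protein, was at 52.0, 70.1 and 70.1 CPM in DMSO and at 55.1, 87.7 and 77.2 CPM in UNC, higher in all 3 pairs (0.18 ± 0.06) and just short of the threshold (adjusted p = 0.0503). DNAJB11 (0.07), the ubiquitin ligase SYVN1 (0.0081, of either sign depending on the scaling) and CRELD2 (-0.04) were not called. Of the 8 ER arm genes with an ERSE or ERSE-II in the window, HSPA5, HSP90B1, XBP1 and CALR rose, while HYOU1, HERPUD1, SDF2L1 and CRELD2 were not called.

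**Figure D2:**
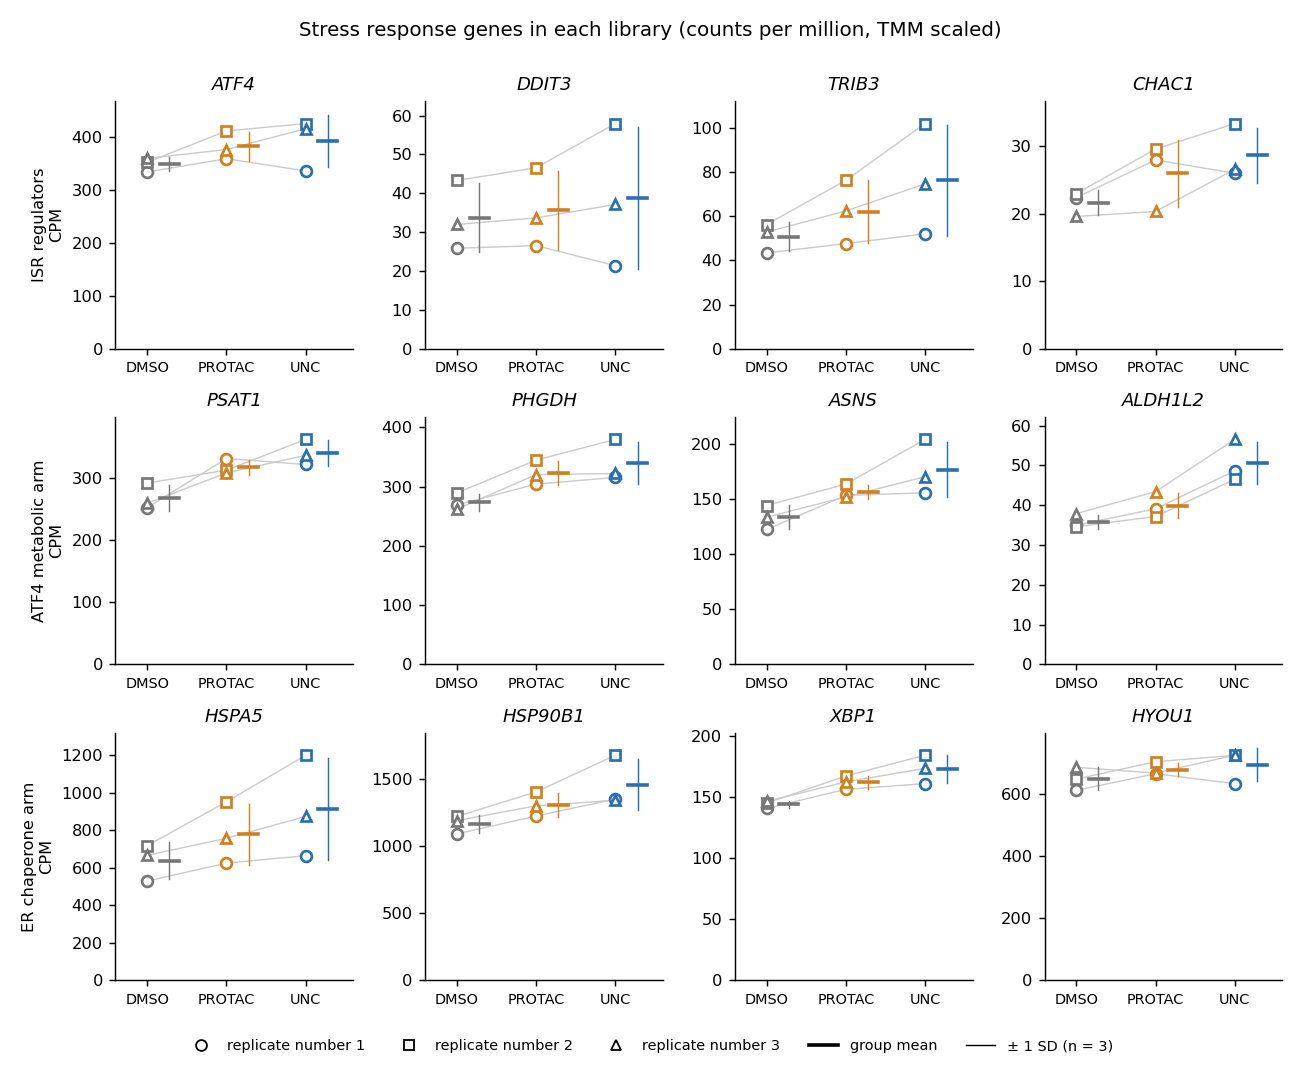
CPM of 12 of the genes in each library (y axis from 0), by group (x axis), with symbols for the replicate number, grey lines joining libraries of one number, and the group mean ± 1 SD (n = 3) beside them. For ALDH1L2, PSAT1, ASNS and XBP1 the UNC libraries lie above all DMSO libraries, while DDIT3 spreads from 21.3 to 58.0 CPM within UNC.

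The calls in UNC leaned on some libraries more than on others. Of the 28 calls, 10 were made in all 17 alternatives of the paired fit, which changed the scaling, the filter, the tool or the libraries: TRIB3, PHGDH, PSAT1, ALDH1L2, ASNS, SLC7A11, HSPA5, DNAJC3, PDIA3 and PDIA6. Without the libraries of number 2 only these 10 were called, 1 in the ISR group, 5 in the metabolic arm and 4 in the ER arm. Over all genes that step took the higher calls from 1703 to 580 and the lower ones from 1562 to 617. Without number 1, 33 of the 44 were called higher, and 1432 of all genes. CHAC1, NUPR1, DDIT4, DNAJB9, HSP90B1, PDIA4 and XBP1 lost their calls without number 2 alone among the alternatives, with adjusted p between 0.0544 and 0.126. Single libraries decided others. ATF4 lost its call without DMSO 2, DMSO 3, UNC 2 or UNC 3, CALR without DMSO 1, DMSO 2, UNC 2 or UNC 3, and SARS1 without any 1 of the DMSO libraries, UNC 2 or UNC 3. VLDLR and EDEM1 lost theirs without DMSO 2, DMSO 3, UNC 1 or UNC 2, CEBPB without DMSO 3 or UNC 2, and STC2 without DMSO 3. GARS1 did so without DMSO 2 or UNC 2, SEL1L without UNC 1 or UNC 2, MTHFD2 without UNC 2, and WARS1 without DMSO 2, DMSO 3, UNC 1 or UNC 2. Scaling also mattered, since ATF4 and SARS1 lost their calls with upper-quartile or library-size scaling, and VLDLR and EDEM1 with library-size scaling. Over these alternatives the adjusted p reached 0.466 for ATF4, 0.476 for SARS1, 0.399 for VLDLR and 0.146 for MTHFD2. The call of ALDH1L2 by group alone was made in 8 of its 17 alternatives other than pairing. It was lost under library-size scaling, in a fit of the 6 libraries only, without any 1 replicate number, and without DMSO 1, DMSO 2, DMSO 3 or UNC 3, with an adjusted p of up to 0.528. Without UNC 2 alone, 18 of the 44 were called higher in the paired fit, and 803 of all genes.

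The arms differed in how they varied between libraries, which is given here as a description with no test. Each gene's log2 CPM was centred on its mean over the 9 libraries and averaged over the arm. In the metabolic arm, UNC exceeded DMSO by 0.19, 0.25 and 0.22 in pairs 1 to 3, and the 3 DMSO libraries lay within -0.18 to -0.09, all below the UNC libraries at 0.02 to 0.16. In the ER arm the pair differences were 0.15, 0.31 and 0.19, and the groups overlapped, since UNC 1 (-0.09) was below DMSO 2 (-0.01). In the ISR group they were -0.01, 0.40 and 0.29: UNC 1 (-0.25) and DMSO 1 (-0.24) were the lowest of the 9 libraries, and UNC 2 (0.44) was the highest. UNC 2 held the highest value of all 9 libraries for 13 of 13 ISR genes, 14 of 18 ER genes and 6 of 13 metabolic genes. Each arm had a like share of calls in UNC (8 of 13, 8 of 13 and 11 of 18 higher), and no difference between the arms was tested.

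**Figure D3:**
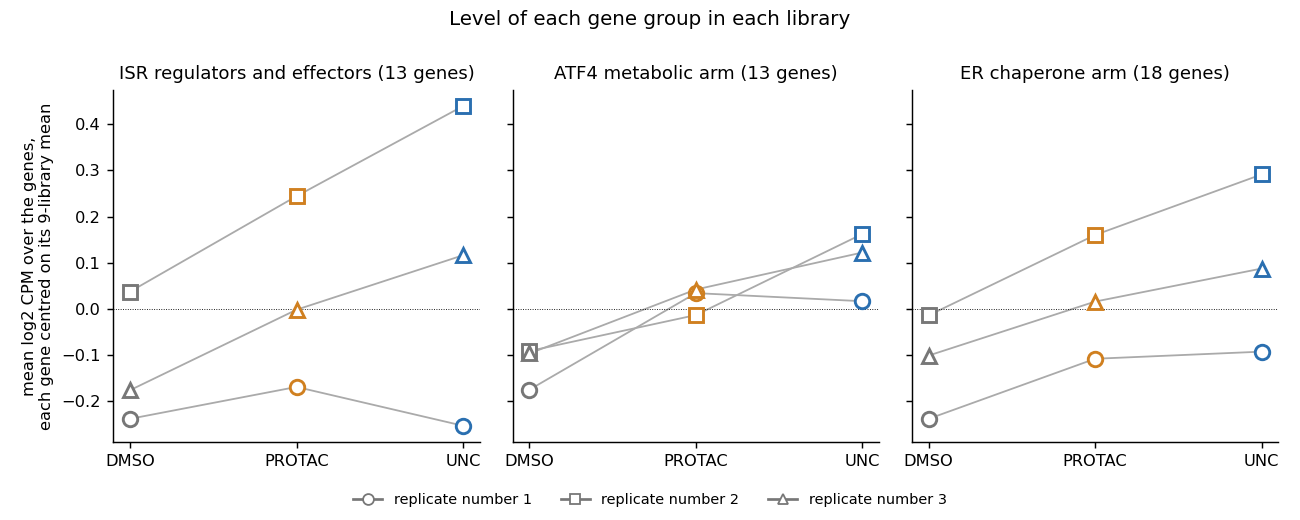
Mean over the genes of each arm of log2 CPM centred on each gene's mean over the 9 libraries (y axis), by group (x axis), with lines joining libraries of one replicate number. In the metabolic arm the lines lie close together and all UNC libraries are above all DMSO libraries, while in the ISR group number 1 stays low in UNC (-0.25) and number 2 is highest (0.44).

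Most of these genes differed between the replicate numbers. In an F test of the number within the paired fit, 33 of the 44 were called, against 31.5% of all genes. The share among genes of at least 10 CPM was not taken for this test. Number 2 was the highest for most of those called and number 1 the lowest. NUPR1 differed most, at a mean of 5.89 CPM over the libraries of number 1, 16.1 CPM in number 2 and 14.6 CPM in number 3 (adjusted p = 1.67e-11). HSPA5 was at 606, 957 and 766 CPM (adjusted p = 1.34e-08), and DDIT4 at 165, 228 and 164 CPM (adjusted p = 1.14e-08). SLC7A11 went the other way, at 31.8, 21.8 and 31.8 CPM (adjusted p = 5.62e-07). Genes not called here were SESN2, PSAT1, PSPH, SHMT2, SLC7A5, GARS1, HYOU1, CALR, PDIA3, SEL1L and XBP1. What the numbers stand for is not stated beyond independent repeats, and their part in the differences between groups was not tested beyond the pairing.

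Fewer of these genes were called with UNC6852 than with UNC1999, a difference in counts that does not test the compounds against each other. Against the same DMSO libraries, 12 of the 44 were higher in the paired fit and 0 lower, where 2.01% of all genes were called higher and 0.984% lower, and 3.95% higher among genes of at least 10 CPM. The median log2 fold change was 0.16, against -0.01 for all genes. Of the 44, 41 were positive, against 47.9% of all genes and 60.3% of genes of at least 10 CPM. By group alone, edgeR called 0 higher and 0 lower, both of the 44 and of all genes. At an unadjusted p under 0.05 that fit gave 9 of the 44 higher and 0 lower, and 1200 of all genes in either direction. DESeq2 by group also called 0 of the 44 (13 higher and 10 lower over all genes), as did limma-voom (0 and 0). At an unadjusted p under 0.05 the paired fit gave 28 higher and 0 lower, and 3853 of all 24187 genes in either direction. DESeq2 and limma-voom with the same pairing each called 17 of the 44 higher and 0 lower. Over all genes DESeq2 then called 632 higher and 220 lower, and limma-voom 650 and 382. In 11 of the 44 every PROTAC library lay above every DMSO library, as in 6.07% of all genes, again with no share taken among genes of at least 10 CPM. With upper-quartile or library-size scaling, the paired calls over all genes went from 486 higher and 238 lower to 308 and 260 or to 273 and 265, and the 12 calls among the 44 to 8 in both.

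All 12 genes called with PROTAC were also called higher with UNC, and the 2 comparisons share the DMSO libraries. These genes were DDIT4 (0.29), CHAC1 (0.26), CEBPB (0.24) and STC2 (0.22) among the ISR genes, PSAT1 (0.25), PHGDH (0.24) and ASNS (0.23) in the metabolic arm, and HSPA5 (0.27), DNAJB9 (0.27), DNAJC3 (0.22), PDIA6 (0.19) and PDIA4 (0.18) in the ER arm. PSAT1 was at 331, 313 and 308 CPM in the PROTAC libraries, above all DMSO libraries (adjusted p = 0.00621). PHGDH stood at 304, 345 and 320.3 CPM (adjusted p = 0.00505) and ASNS at 153, 164 and 152 CPM (adjusted p = 0.00916), both also clear of DMSO. HSPA5, at 625, 952 and 757.5 CPM, overlapped DMSO through PROTAC 1 (adjusted p = 0.00806). CHAC1, at 27.99, 29.6 and 20.35 CPM, overlapped through PROTAC 3 (adjusted p = 0.0459). PDIA4, at 439.5, 488 and 448 CPM, was above DMSO throughout (adjusted p = 0.0347). Amino acid and serine genes and ER chaperones both had members called, while the 3 tRNA synthetases were not called. GARS1 was at 277, 281 and 299 CPM (a log2 difference of 0.07), and the log2 difference was 0.09 for SARS1 and -0.09 for WARS1.

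The other 32 were not called with PROTAC. ATF4 was at 359, 412 and 377 CPM (0.13 ± 0.05, adjusted p = 0.202), with PROTAC 1 just below DMSO 3. TRIB3 was at 47.7, 76.4 and 62.5 CPM (0.27 ± 0.08, adjusted p = 0.0699), SESN2 at 102, 103 and 92.2 CPM (0.13) and DDIT3 at 26.5, 46.6 and 33.7 CPM (0.08). The regulators ATF3 (0.17), ATF5 (-0.15), NUPR1 (0.15), PPP1R15A (-0.02) and VLDLR (0.20) were likewise not called. In the metabolic arm SLC7A11 was at 32.8, 18.7 and 30.4 CPM (0.17), MTHFD2 at 566, 623 and 584 CPM (0.16) and ALDH1L2 at 39.1, 37.1 and 43.4 CPM (0.15 ± 0.06, adjusted p = 0.157). SLC7A5 (0.19, adjusted p = 0.0517), SHMT2 (0.16), SLC3A2 (0.15) and PSPH (0.08) were not called either. In the ER arm XBP1 was at 156, 167 and 162 CPM, above DMSO throughout (0.17 ± 0.05, adjusted p = 0.0537). HSP90B1 was at 1224, 1404 and 1300 CPM (0.16), HYOU1 at 667, 706 and 669 CPM (0.07) and MANF at 59.9, 82.5 and 64.4 CPM (0.11). SDF2L1 was at 12.4, 18.3 and 15.4 CPM (0.13) and HERPUD1 at 51.7, 93.9 and 59.3 CPM (0.13). CALR (0.10), PDIA3 (0.14), SEL1L (0.14), EDEM1 (0.17), CRELD2 (0.04), DNAJB11 (0.02) and SYVN1 (0.0019) complete the arm, with DNAJB11 and SYVN1 of either sign depending on the scaling.

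None of the 12 calls with PROTAC was made in all 17 alternatives of the paired fit, and 8 were made under every scaling, filter, tool and set of groups fitted there. DDIT4 came closest, lost only without number 3. The number of the 44 called higher was 2 without number 2, number 3 or DMSO 2 alone, 3 without DMSO 3, 6 without PROTAC 1 or PROTAC 3, and 7 without PROTAC 2. These counts include VLDLR without PROTAC 1 and SLC7A5 without PROTAC 2, which are not among the 12. Without number 1 or DMSO 1, 11 were called, some of them outside the 12. Over all genes the higher calls went from 486 to 91 without number 2, 99 without number 3 and 391 without number 1. They were 350, 279 and 154 without DMSO 1, 2 or 3, and 248, 327 and 201 without PROTAC 1, 2 or 3. Leaving out DMSO 2 ended the calls of ASNS, CEBPB, CHAC1, DNAJB9, DNAJC3, HSPA5, PDIA4, PDIA6, PHGDH and STC2. Leaving out DMSO 1 ended those of PSAT1, PDIA4 and PDIA6, and leaving out DMSO 3 those of PSAT1, PHGDH, CEBPB, CHAC1, DNAJB9, DNAJC3, PDIA4, PDIA6 and STC2. Without PROTAC 1 the calls lost were those of ASNS, PSAT1, CHAC1, DNAJB9, HSPA5, PDIA4 and PDIA6. Without PROTAC 2 they were CEBPB, CHAC1, DNAJB9, HSPA5, PDIA4 and STC2, and without PROTAC 3 CEBPB, DNAJB9, DNAJC3, PDIA4, PDIA6 and STC2. The adjusted p reached 0.408 for CHAC1 and 0.0750 for DDIT4 over these alternatives. The pair differences averaged over all 44 were 0.14, 0.16 and 0.14 for pairs 1 to 3, against 0.11, 0.32 and 0.23 for UNC.

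Set directly against UNC, at their different doses, PROTAC was lower for 4 of the 44 in the paired fit and higher for 0, where 0.740% of all genes were called lower and 2.17% higher. By group alone, edgeR called 0 of the 44 in each direction, and 0% of all genes lower and 0.00827% higher. At an unadjusted p under 0.05 that fit gave 1 of the 44 lower and 0 higher, and 1137 of all genes in either direction. DESeq2 by group also called 0 of the 44 (19 lower and 110 higher over all genes), as did limma-voom (0 and 1). At an unadjusted p under 0.05 the paired fit gave 9 lower and 0 higher, and 3151 of all 24187 genes in either direction. ALDH1L2 differed most firmly, at 39.1, 37.1 and 43.4 CPM in PROTAC and 48.6, 46.5 and 56.5 CPM in UNC, without overlap (-0.34 ± 0.06, adjusted p = 1.35e-04), a call made in all 17 alternatives of the paired fit. SLC7A11 (-0.34 ± 0.07, adjusted p = 0.00427), NUPR1 (-0.36 ± 0.10, adjusted p = 0.0342) and HSPA5 (-0.21 ± 0.06, adjusted p = 0.0462) were lower with PROTAC in all 3 pairs, their groups overlapping. SLC7A11 lost its call without PROTAC 2, UNC 1 or UNC 2, and NUPR1 without number 2 or 3 of either group. HSPA5 lost its call without any 1 of the PROTAC libraries, UNC 2 or UNC 3. It was also lost for HSPA5 under the filter of 1 CPM in 3 libraries, in limma-voom and in a fit of only the 6 libraries compared. Leaving out PROTAC 2 or UNC 2 left 1 call, leaving out PROTAC 3 or UNC 3 left 2, and leaving out number 1 made it 8. Over all genes the lower calls went from 179 to 70, 83, 98, 71 and 237 in the same order. The other 40 were not called in the paired fit. For ATF4 the 95% interval of the log2 difference ran from -0.14 to 0.08, for PSAT1 from -0.21 to 0.01, for PHGDH from -0.17 to 0.04 and for XBP1 from -0.19 to 0.01. TRIB3 (-0.27 ± 0.08) and ASNS (-0.17 ± 0.05) missed the threshold after adjustment (adjusted p = 0.0724 and 0.0852). Their 95% intervals, which are not adjusted, lay below 0. So did those of GARS1 (-0.24 to -0.03), HSP90B1 (-0.26 to -0.04) and DNAJC3 (-0.22 to -0.01), also not called. Over all 44 the intervals stayed between -0.56 and 0.24, and 37 of the 44 estimates were negative (median -0.06, ISR -0.03, metabolic -0.07, ER -0.08). Without UNC 2 the arm medians were 0.0093, -0.03 and -0.05, and without UNC 1 the ISR median was -0.10.

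The neighbouring genes of these pathways were read from 10 lists, 192 genes in all, chosen by function with earlier results of these data known. They were set against the 7.04% of all genes and 13.2% of genes of at least 10 CPM called higher with UNC in the paired fit. By group alone edgeR called 1 of the 192 higher with UNC and 0 lower (36 and 1 at an unadjusted p under 0.05), DESeq2 10 and 0, and limma-voom 0 in each direction. Lists with shares of calls near the background are given as values only. Among them are the sensors (18.2% called, median 0.06), the synthetases and the heat shock genes. Among the sensors, eIF2 and eIF2B genes 4 of 22 rose in the paired fit: ATF6, the ER stress sensor and transcription factor (0.36 ± 0.06, adjusted p = 1.62e-05), EIF2AK3, which encodes PERK (0.20), EIF2S2, the eIF2 beta subunit (0.18), and EIF2AK4, which encodes the amino acid sensor GCN2 (0.18). Among other ER folding, degradation and translocation genes 23 of 57 rose and UBE2J1 fell (median 0.15), led by the cargo receptor LMAN1 (0.35), the oxidase ERO1A (0.33) and the coat protein SEC24D (0.30). ERO1A was the 1 gene that edgeR called by group alone (adjusted p = 0.0452). Of other cytosolic tRNA synthetases 3 of 17 rose, TARS1 (0.26), NARS1 (0.20) and MARS1 (0.17), and of mitochondrial ones 1 of 17, IARS2 (0.15). Among other ATF4 and CHOP targets 4 of 19 rose, PCK2 (0.30), XPOT (0.24), EIF4EBP1 (0.19) and PYCR1 (0.18).

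Of 14 other amino acid transporters SLC1A5 rose (0.28) and SLC38A5 fell by 0.59 on the log2 scale. Of 14 other serine, glycine and folate enzymes edgeR, DESeq2 and limma-voom called 0 with pairing (3 higher and 1 lower in edgeR at an unadjusted p under 0.05), GLDC having the smallest p (0.12, adjusted p = 0.113). Cytosolic heat shock genes had 2 of 12 higher, BAG3 (0.24) and HSP90AA1 (0.19), mitochondrial chaperones and proteases 1 of 6, HSPA9 (0.21), and NRF2 targets 4 of 14, namely GCLM (0.39), ME1 (0.51) and TXNRD1 (0.21), with FTH1 (0.16). With PROTAC in the paired fit, where the background was 2.01% of all genes and 3.95% of those of at least 10 CPM, the counts called higher were 1 sensor (ATF6, 0.20), 5 ER genes (led by ERO1A, 0.28), 1 transporter (SLC1A5, 0.30), 1 ATF4 target (XPOT, 0.18), 1 NRF2 target (GCLM, 0.28) and 4 heat shock genes (HSPA1B, DNAJB1, HSPA1A and HSPH1). In the other 4 lists edgeR called 0 with PROTAC, where at an unadjusted p under 0.05 it gave 3 cytosolic synthetases higher and 2 genes higher in each of the other lists. DESeq2 and limma-voom each called 1 cytosolic synthetase there and 0 in the other 3 lists. By group alone edgeR, DESeq2 and limma-voom called 0 of the 192 with PROTAC (12 higher and 0 lower in edgeR at an unadjusted p under 0.05). HSPA1A (0.34) and HSPA1B (0.28) were also higher with PROTAC than with UNC in the paired fit, though these near-identical copies can trade reads.

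**Figure D4:**
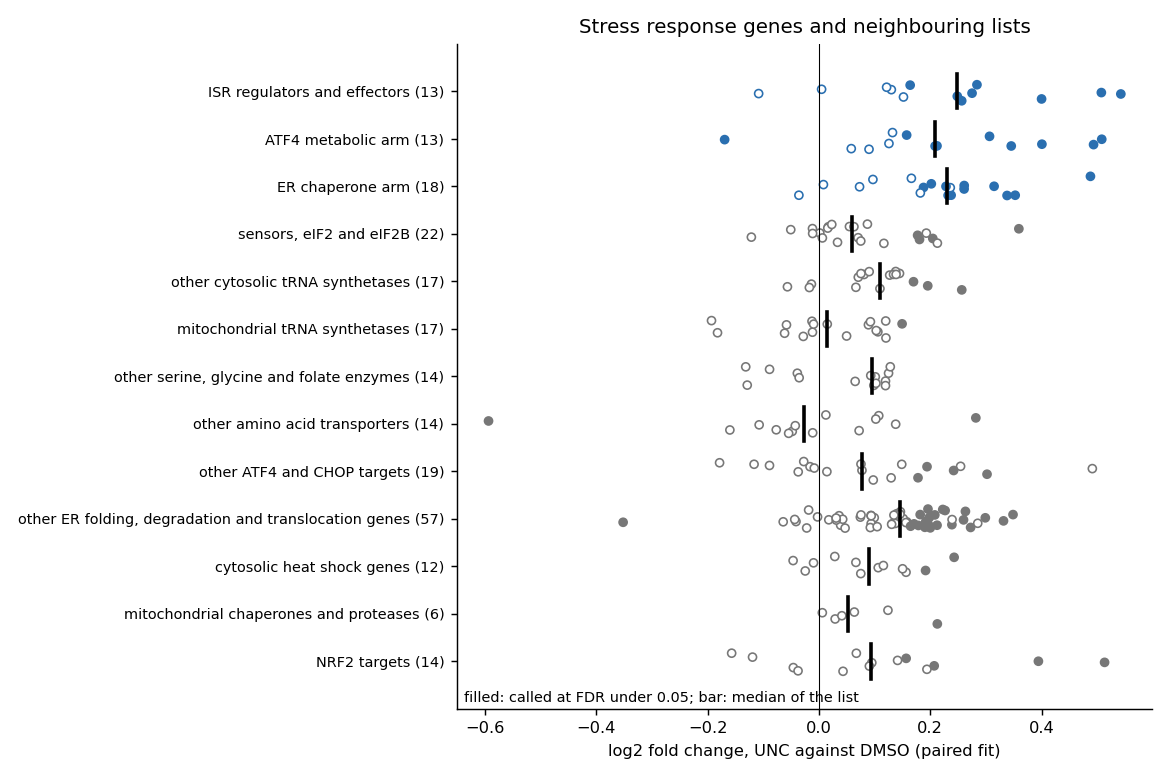
Log2 fold change of UNC against DMSO in the paired fit (x axis) for each gene of the 3 arms (blue) and of 10 neighbouring lists (grey), with the number of genes in brackets. Filled points were called, and bars mark medians: 0.25, 0.21 and 0.23 in the arms, 0.15 in the other ER genes and -0.03 to 0.11 in the remaining lists.

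CPM were also divided by the length of all annotated exons of each gene merged together, which can exceed that of a transcript. On that scale ER chaperones and ATF4 itself ranked highest of the 44 in DMSO cells. HSP90B1 stood at 249 CPM per kilobase, CALR at 188, HSPA5 at 163 and ATF4 at 139 CPM per kilobase. PSAT1 (122) and MTHFD2 (109) followed among the metabolic genes, while ASNS was at 29.9, TRIB3 at 14.8, DDIT3 at 25.8 and XBP1 at 47.6 CPM per kilobase. SLC7A11 (2.49) and NUPR1 (1.78) ranked lowest on that scale, NUPR1 with 5674 merged exon bases. Lengths of single transcripts were not used, so the ranks depend on the annotation. Calls with UNC came at both ends of this range: HSP90B1 rose at the top and ALDH1L2 (4.21) near the bottom, while HYOU1 (84.5) was not called and WARS1 (77.1) fell.

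Reads of overlapping genes could bear on some of the calls, which was not tested, and the strand setting of the counting is not given. In 10 of the 44 another entry overlapped the gene and held more than 10% of its counts. ALDH1L2 is overlapped on the opposite strand by NOPCHAP1 and WASHC4, which had 192% and 236% of its counts and were not called (0.04 and 0.06 with UNC). ASNS is overlapped by a same-strand entry with 92.9% of its counts and a change of 0.39, and NUPR1 by one with 69.1% and 0.50. DDIT3 is overlapped on the opposite strand by MARS1, which had 852% of its counts and rose by 0.17, and CRELD2 by ALG12 (94.0%), which rose by 0.20. The others were ATF5, SLC3A2, GARS1, DNAJB11 and SYVN1. Pseudogene entries named after MTHFD2 and ASNS were also in the table, and that of ASNS held 2.03% of its counts.

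Markers of cell identity were read in the same libraries, with calls from the paired fit unless said otherwise. In that fit 7.04% of all genes were called higher and 6.46% lower with UNC, 2.01% and 0.984% with PROTAC, and 2.17% and 0.740% with PROTAC against UNC. General pluripotency markers summed to 5220 to 5590 CPM in DMSO, 5660 to 5940 in PROTAC and 5670 to 6110 in UNC, with SOX2, TDGF1 and LIN28A called higher in UNC (3 of 8) and SOX2 in PROTAC. Naive markers summed to 1370 to 1530 CPM in DMSO, 1440 to 1510 in PROTAC and 1270 to 1490 in UNC (2 of 8 higher in UNC, ARGFX and DPPA5, and 3 in PROTAC). Primed markers summed to 940 to 1000 CPM in DMSO, 926 to 1080 in PROTAC and 903 to 1000 in UNC (1 higher and 3 lower of 8 in UNC, 1 lower in PROTAC). Trophoblast markers summed to 135 to 162 CPM in DMSO, 151 to 163 in PROTAC and 125 to 139 in UNC, and 7 of 9 tested were lower in UNC, among them GATA2 (-1.08) and GATA3 (-1.52), and 2 in PROTAC. Amnion markers summed to 31.3 to 36.7 CPM, 28.9 to 38.0 and 22.6 to 27.9 in the same order (3 of 7 tested lower in UNC), and mesoderm markers to 14.1 to 16.6, 10.8 to 14.3 and 8.82 to 9.65 CPM (3 of 5 lower in UNC). Endoderm markers summed to 7.83 to 12.4, 8.86 to 11.6 and 10.8 to 15.3 CPM, with HNF4A higher in both groups, and neural markers to 391 to 420, 430 to 463 and 380 to 431 CPM. Of the 5 neural markers edgeR called 0 (with UNC 0 also at an unadjusted p under 0.05, in DESeq2 and in limma-voom, and with PROTAC 1 higher and 1 lower at an unadjusted p under 0.05, 1 in DESeq2 and 0 in limma-voom). None of the markers listed was at 0 in all 9 libraries. Set against UNC, PROTAC was higher for 5 of the 9 trophoblast, 2 of the 7 amnion and 2 of the 5 mesoderm markers, 1 primed marker (SALL2) and 1 naive marker (KLF17), and lower for ARGFX and HNF4A. By group alone edgeR called 7 of the 54 markers tested with UNC, namely ARGFX and HNF4A higher and GATA3, TNC, WNT6, TBXT and ZIC2 lower. It called 0 with PROTAC against DMSO (4 higher and 4 lower at an unadjusted p under 0.05, 1 in DESeq2 and 0 in limma-voom) and 0 with PROTAC against UNC (8 higher and 2 lower, 2 in DESeq2 and 0 in limma-voom). Whether these differences in marker RNA have a part in the rise of the stress genes was not tested.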

How the data were processed

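Bulk RNA was sequenced from 9 libraries, 3 for each of DMSO, UNC and PROTAC. The deposited file is 1 table of raw counts, whole numbers with no normalization by the authors. Per the submitters' processing notes, Trim Galore 0.6.10, HISAT2 2.2.1 and GRCh38 were used. How reads were counted (tool, annotation, strand) is not given in the sources used here. RNA selection is uncertain, since labels name polyA RNA while the library protocol describes rRNA depletion. Of 56312 entries, 5 name a gene but no ID and were kept, and 0 columns of other samples were present. The 44 genes and all lists were chosen with earlier results of these data known.

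Counts as deposited were fitted with edgeR 4.0.16 (R 4.3.3): TMM factors, its filter on expression with the groups as design (24187 entries kept), robust quasi-likelihood fits of all 9 libraries, and Benjamini-Hochberg adjustment over all entries tested at 0.05. The design of record has the group alone, with a biological coefficient of variation of 13.2% and 6 residual degrees of freedom. The paired fit adds the replicate number as a block (6.09%, 4 residual degrees of freedom). The numbers were taken to pair libraries because deviations from the group means correlated above 0.1 in all 9 same-number pairs. Their r ran from 0.106 to 0.472 (median 0.264), the lowest just above that threshold. The 18 different-number pairs gave -0.324 to 0.0753 (median -0.160). Deviations from a group mean cancel within the group, so positive same-number values force the different-number values to be negative on average. The contrast between these kinds of pairs is therefore not separate evidence for the pairing, which rests on the same-number values alone. Replicates of a group differed beyond counting noise (chi-square per degree of freedom 10.5 to 37.3). The p-values measure the spread between these libraries of 1 line.

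CPM are counts scaled to the TMM-adjusted library size. Arm levels use log2 CPM with a prior count of 2. Named genes are all 44, with library values for the central regulator and targets of each arm and for any called by group alone, and up to 3 genes of each neighbouring list by paired p. Where a list had at most 5 calls the rest are also named, chosen after their values were seen. The comparison with genes of at least 10 CPM and the 95% intervals were also chosen after seeing the data. Exon lengths, with all exons of a gene merged, came from GENCODE 29 and promoter windows from RefSeq (GRCh38.p14). Protein sequences, planned for ER retention signals, were not used here. The scripts were tested on simulated data. Alternatives changed the scaling, the filter, the tool (DESeq2 1.42.0, limma-voom from limma 3.58.1), the libraries fitted and the pairing.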

Additional observations from a re-analysis of the deposited data

How the results depend on the processing

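The count of stress genes called depended above all on pairing. With the replicate block, UNC against DMSO went from 1 gene higher and 0 lower to 27 and 1, PROTAC against DMSO from 0 to 12 higher, and PROTAC against UNC from 0 to 4 lower. By group alone, the UNC count was 0 with library-size scaling or only the 6 libraries compared (41 and 22 higher over all genes). It was 6 with DESeq2 (404 over all genes), 12 with no filter on low counts (356 of 39372) and 0 to 4 with libraries left out (0 to 109). PROTAC against UNC had 1 lower with no filter, and 38 over all genes. In the paired fits, leaving out a library or a number gave 10 to 33 higher and 0 to 1 lower for UNC, 2 to 11 higher for PROTAC, and 1 to 8 lower for PROTAC against UNC. Over all genes the same steps gave 580 to 1432 higher for UNC, 91 to 391 higher for PROTAC and 45 to 237 lower for PROTAC against UNC. The 1 lower with UNC was 0 under RLE scaling and in DESeq2. The median of the metabolic arm with UNC was 0.21 by group (0.18 with library-size scaling, 0.13 to 0.26 with libraries left out) and 0.21 paired (0.18, and 0.14 to 0.24). With libraries left out, the PROTAC medians by group were 0.093 to 0.30 in the ISR group and 0.11 to 0.20 in the ER arm, and 0.11 to 0.26 in the ISR group paired. PROTAC against UNC in the ER arm ran from -0.14 to 0.015 by group. Leaving out UNC 2 gave the low ends for UNC by group, in the ISR group a median of 0.11 where all libraries gave 0.25. For PROTAC by group, the ISR median was 0.30 without DMSO 2, 0.26 without PROTAC 1 and 0.093 without PROTAC 2, and paired it was 0.26 without DMSO 1 and 0.11 without PROTAC 1. PROTAC against UNC by group had medians above 0 in all 3 arms without UNC 2 (0.013 to 0.074). The gene counts at the low end came without number 2 for UNC. No called gene changed sign under any of these alternatives. Of the alternatives for called genes in the paired fits, 411 kept the call and 65 lost it for UNC, 125 and 79 for PROTAC, and 48 and 20 for PROTAC against UNC. The replicate-number count was 28 to 35, and its share over all genes was taken only in the main fit (31.5%). All 44 genes had a mean of at least 10 CPM in libraries of at least 31651742 counts. The causes of these shifts were not tested, beyond fewer libraries where some were left out.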
